A study of Mus musculus with 7 samples.

Results

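Skeletal muscle is built by a small circuit of transcription factors, and 9 of its genes were followed here in tumors grown from mouse embryonic fibroblasts (MEFs). They were chosen by name, with earlier results of these data known, as the 4 myogenic regulatory factors Myod1, Myf5, Myf6 and Myog, the paired-box genes Pax7 and Pax3, the cofactor Mef2c and the fusion genes Mymk and Mymx. All 9 were matched by their GENCODE M21 symbol to an Ensembl gene among the 46603 genes counted. The study compared tumors of NM1 KO cells, which are MEFs whose nuclear myosin 1 (NM1) was deleted with CRISPR/Cas9, with tumors of KO+NM1 cells, in which NM1 with HA and V5 tags was returned to the same KO cells by a lentivirus and single clones were picked. Cells were injected subcutaneously into female Balb/c nude mice aged 16 weeks, hosts that have no thymus but keep their own muscle, fat and vessels, and tumors were collected after 30 days according to the labels, while the study's text also names the mammary pad as the site and gives a somewhat shorter time. The 7 RNA-seq libraries come from 3 pieces of KO tumor and 4 pieces of KO+NM1 tumor, cut after collection. The labels give 4 pieces per tumor, but only 3 KO libraries are present. The labels write of 1 tumor per condition and the study's text of a tumor in one place and of tumors in another, so whether the spread between pieces holds any difference between mice is not known.

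Myogenic regulatory factors are basic helix-loop-helix proteins that pair with E proteins and bind the E-box, a short DNA element. Myod1 and Myf5 commit cells to the muscle fate, Myog drives their differentiation, and Myf6, also called MRF4, is the member that prevails in adult fibers. Satellite cells, the stem cells that lie beside the fibers, are marked by Pax7, whereas Pax3 acts in embryonic muscle progenitors and also in neural crest and melanocytes. Mef2c works beside these factors, but is also used in the heart, endothelium, B cells and macrophages. Myomaker (Mymk) and myomixer (Mymx) are membrane proteins that fuse myoblasts into fibers.

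Myog is the member whose promoter is best known as a meeting point of these factors, and Myf5 is shown beside it because their counts in the same pieces differed widely. The windows below are RefSeq promoters, 250 bases before and 50 after the start, in GRCm38.p6. They lie at chr1:134289754-134290053 on the plus strand for Myog and at chr10:107486085-107486384 on the minus strand for Myf5. Capitals mark every match to the E-box, CANNTG, and to the MEF3 element, TCAGGTTTC, another known element of muscle promoters, both searched on both strands and without overlap between them.
Myog: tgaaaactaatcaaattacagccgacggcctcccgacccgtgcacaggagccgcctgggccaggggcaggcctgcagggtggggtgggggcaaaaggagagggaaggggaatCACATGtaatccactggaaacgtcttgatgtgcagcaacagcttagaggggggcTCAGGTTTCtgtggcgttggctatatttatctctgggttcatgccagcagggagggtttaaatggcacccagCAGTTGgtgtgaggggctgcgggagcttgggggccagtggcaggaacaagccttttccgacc
Myf5: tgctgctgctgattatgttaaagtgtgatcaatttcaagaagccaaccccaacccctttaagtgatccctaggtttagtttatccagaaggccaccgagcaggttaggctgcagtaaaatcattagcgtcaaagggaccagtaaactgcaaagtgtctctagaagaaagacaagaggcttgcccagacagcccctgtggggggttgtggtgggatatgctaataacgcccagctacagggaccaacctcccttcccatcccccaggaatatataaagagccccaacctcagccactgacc
The Myog window holds 2 E-boxes, at positions -138 and -12 from the start, and 1 MEF3 match at -84. The Myf5 window holds neither motif, and nor does that of Pax7. Of 32851 promoters of the same length, 72.3% hold an E-box and 0.429% hold this MEF3 sequence. At least as many E-boxes as in the Myog window are held by 39.6%. These matches describe letters, not binding. Promoter entries were found for Myog, Myf5, Pax7 and Mef2c. The 3 windows of Mef2c hold 2, 0 and 1 E-boxes and no MEF3 match.

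The libraries held 24088309 to 28326568 counts, and the floor of 3 counts, taken as the one-sided 95% Poisson limit for a count of 0, was 0.0989 to 0.148 CPM (counts scaled to a common library size with TMM factors). Myo1c, whose isoform NM1 is, had 302 ± 12.1 CPM (SD, n = 3) in KO tumor and 408 ± 23.0 CPM (SD, n = 4) in KO+NM1 tumor, which is -0.43 on the log2 scale (SE 0.13, edgeR adjusted p = 0.0311) and under a 2-fold change. Counts per gene separate neither the isoforms nor host from injected cells. The 10 fibroblast genes checked were counted in every piece, with sums of 9855 to 16020 CPM in the KO pieces and 3600 to 12954 CPM in the KO+NM1 pieces. KO+NM1 piece 1 stood apart from its group, with 6553 CPM of 10 B cell genes against 205 to 217 CPM in pieces 2 to 4.

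Between the tumors, Myod1, Myf6 and Pax3 were higher in the KO pieces, whereas Mef2c did not pass the thresholds of an adjusted p under 0.05 and a 2-fold change (edgeR's quasi-likelihood test over 16887 genes, Benjamini-Hochberg adjustment). These 4 members were the ones that passed the filter on low counts. Over all genes tested, 17.1% were called higher in the KO pieces and 37.3% in either direction, and 50.2% had an adjusted p under 0.05 whatever their fold change. Myod1, Myf6 and Pax3 entered the test through the KO pieces alone, so a call was close to certain for them and their number is not support. The other 5 members, Myog, Myf5, Pax7, Mymk and Mymx, were below the filter and are given by their counts. In 6 of the 9, namely Myod1, Myf6, Myog, Myf5, Pax7 and Pax3, every KO piece was above every KO+NM1 piece, a pattern seen in 30.5% of all genes tested, with 57.0% apart in either direction. Being below the filter, Myog, Myf5 and Pax7 are outside the genes that these shares cover. In bulk tissue, fewer cells of a type and less RNA per cell cannot be told apart.

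**Figure D1:**
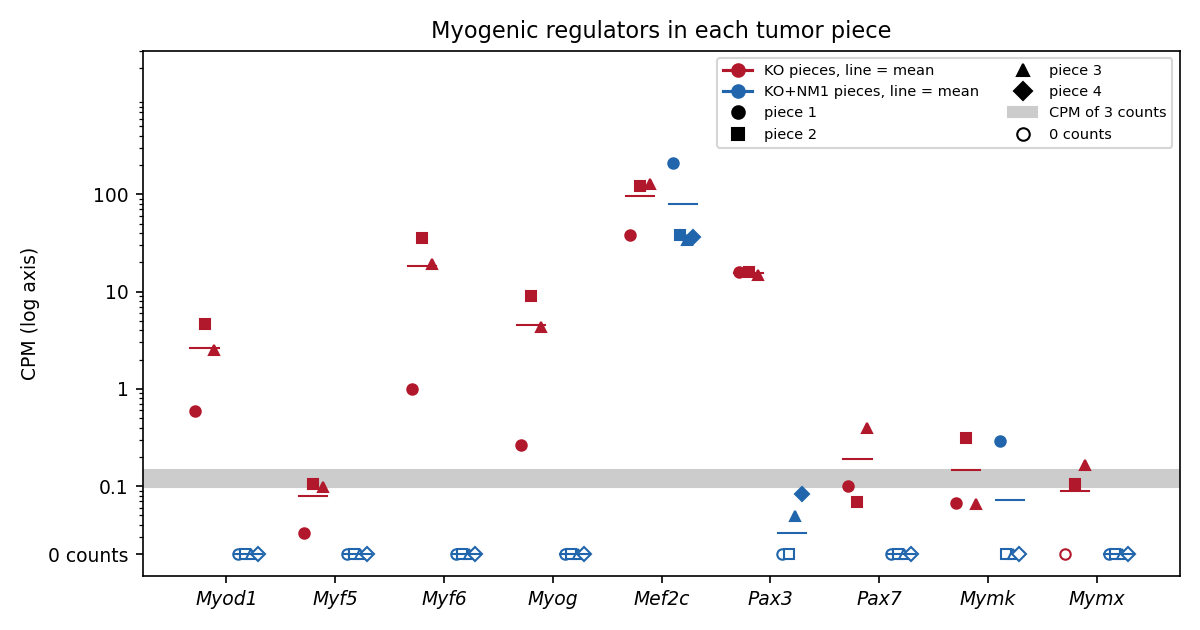
CPM of each of the 9 members (log axis) in the 3 KO pieces (red) and 4 KO+NM1 pieces (blue), with the piece number as symbol, the group mean as a line, open symbols for 0 counts and a gray band for the CPM of 3 counts. Myod1, Myf6, Myog and Pax3 lie above the band in every KO piece and at 0 or under it in every KO+NM1 piece, while Mef2c overlaps between the groups.

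Myf6 (chromosome 10, 107492853 to 107494737, minus strand of GRCm38) was counted 30, 1023 and 582 times in KO pieces 1 to 3 and 0 times in each of the 4 KO+NM1 pieces. The groups did not overlap, but KO piece 1 was far below the other two. Against the floor of 3 counts per library, the KO mean of Myf6 was at least 148-fold higher (edgeR adjusted p = 0.0130). Per kilobase of exon, where levels can be compared between genes, it was the most abundant member in the KO pieces on average, at 14.7 ± 13.7 CPM per kb (SD, n = 3).

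Myf5, its neighbor on the same strand, lies with 6718 bases between them (chromosome 10, 107482908 to 107486134). It had 1, 3 and 3 counts in the KO pieces and 0 in each KO+NM1 piece. Both groups were thus at or under the floor and no fold is given. Its level in the KO pieces was 0.0378 ± 0.0190 CPM per kb (SD, n = 3).

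Myog (chromosome 1, 134289989 to 134292548, plus strand) had 8, 258 and 130 counts in KO pieces 1 to 3 and 0 in each KO+NM1 piece. Again the groups were apart and KO piece 1 was the lowest of its group. Against the floor, its KO mean was at least 35.9-fold higher. It missed the filter through the 8 counts of KO piece 1, and an exact permutation test of its CPM gave p = 0.0286, the smallest that 3 pieces against 4 allow, unadjusted among 5 such tests. Fitted without the filter it had an adjusted p of 0.0162 from edgeR.

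Myod1 (chromosome 7, 46376474 to 46379099, plus strand) had 18, 135 and 77 counts in the KO pieces and 0 in all 4 KO+NM1 pieces. Its KO mean was at least 20.8-fold higher than the floor (edgeR adjusted p = 0.00853). The order of the pieces was that of Myf6 and Myog, with 1 lowest and 2 highest.

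The satellite cell gene Pax7 (chromosome 4, 139737062 to 139833528, minus strand) was near the floor, with 3, 2 and 12 counts in KO pieces 1 to 3 and 0 in each KO+NM1 piece. Its highest value was in KO piece 3, and the other KO pieces did not pass 3 counts. The mean of the KO pieces was at least 1.50-fold the floor. The exact permutation test gave p = 0.0286, the value that any groups without overlap give here, Myf5 with at most 3 counts per piece included. Per kilobase it was the lowest of the 9 members in the KO pieces, at 0.0321 ± 0.0308 CPM per kb (SD, n = 3).

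Mymk (chromosome 2, 27061636 to 27072179, minus strand) had 2, 9 and 2 counts in the KO pieces, 8 in KO+NM1 piece 1 and 0 in KO+NM1 pieces 2 to 4. The groups overlapped (exact permutation test, p = 0.457). Mymx (chromosome 17, 45600971 to 45602102, minus strand) had 0, 3 and 5 counts in the KO pieces and 0 elsewhere (p = 0.143 by the same exact permutation test). At this depth no difference in the fusion pair was detectable. Without the filter, edgeR gave adjusted p = 0.683 for Mymk, 0.139 for Mymx, 0.0696 for Myf5 and 0.0494 for Pax7.

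By mean level per kilobase in the KO pieces the order was Myf6, Mef2c, Myog, Pax3, Myod1, Mymk, Mymx, Myf5 and Pax7. The ranges of neighbors in this order overlapped for every pair except Myod1 and Mymk, which ranged from 0.322 to 2.52 and from 0.0436 to 0.207 CPM per kb. Myog, ranked above Myod1, reached down to 0.178 CPM per kb in KO piece 1, within the range of Mymk. Lengths are those of all annotated exons joined, and the long Mef2c model of 15.715 kb lowers its value.

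The 3 KO pieces differed in the RNA of fast fibers. The sum of 17 genes of mature fibers was 3369, 26053 and 21542 CPM in KO pieces 1 to 3, and 16.6 to 39.6 CPM in the KO+NM1 pieces. All 17 were tested and higher in the KO pieces, but 8 of them, Myh4 included, would not have passed the filter on the KO+NM1 pieces alone, so that a call was close to certain for these. The sum was carried by genes such as Myh4, Acta1 and Atp2a1. Myh4, the heavy chain of the fastest fibers, was at 656, 7994 and 6500 CPM. Acta1, skeletal actin, was at 626, 4050 and 3055 CPM, and Atp2a1, the calcium pump of fast fibers, at 403, 2985 and 2610 CPM. From KO piece 1 to piece 2 the 17 genes changed by 0.704-fold for Myh7, the slow heavy chain, to 12.2-fold for Myh4, with Myh1 at 1.50-fold, genes picked here after their values were seen. Between the tumors, fiber RNA and the 6 members without overlap were all higher in the KO pieces. The part of fiber RNA in that difference was not tested. Among the KO pieces, Pax3 and Pax7 were not lowest in piece 1, where the fiber sum was lowest.

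Set against fiber RNA within the KO pieces, the members behaved differently. Myod1 had 17.8, 18.0 and 11.8 counts per 100000 fiber counts in KO pieces 1 to 3, with exact Poisson 95% intervals of 10.5 to 28.1, 15.1 to 21.3 and 9.30 to 14.7. Its share of fiber RNA was about level between pieces 1 and 2. Myf6 had 29.6, 136 and 89.1 per 100000, with intervals of 20.0 to 42.3, 128 to 145 and 82.0 to 96.6. Myog had 7.90, 34.4 and 19.9 per 100000, with intervals of 3.41 to 15.6, 30.3 to 38.8 and 16.6 to 23.6. From piece 1 to piece 2, Myf6 and Myog therefore increased more than the fiber genes did, by factors of 4.60 (interval 3.20 to 6.85) and 4.35 (interval 2.17 to 10.2) per fiber count, against 1.01 (interval 0.616 to 1.76) for Myod1. These intervals cover counting error only and compare single libraries, not conditions.

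**Figure D2:**
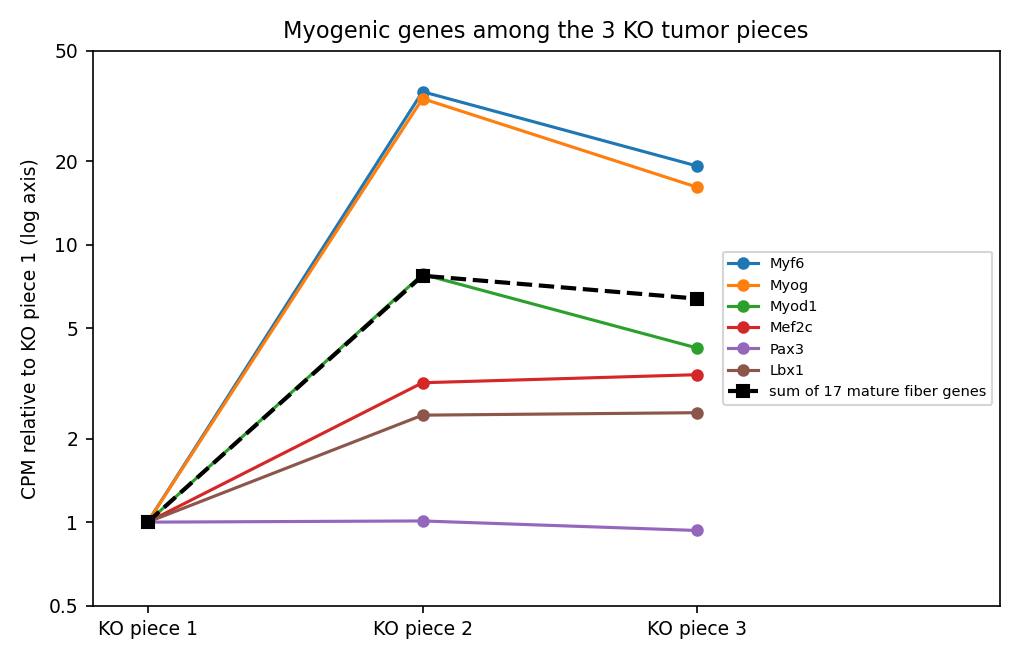
CPM in KO pieces 2 and 3 relative to KO piece 1 (log axis) for 5 members, the cofactor Lbx1, and the sum of 17 mature fiber genes (dashed). Myf6 and Myog rise above the fiber line in piece 2, by 35.6 and 33.6 against 7.73, Myod1 lies on it at 7.82, and Pax3 stays at 1.01.

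Pax3 did not follow the sum of the fiber genes, which fast fiber genes carried. From KO piece 1 to piece 2 it changed 1.01-fold, and the slow fiber gene Myh7 did not follow that sum either, at 0.704-fold. Pax3 (chromosome 1, 78101267 to 78197134, minus strand) had 479, 463 and 451 counts in the KO pieces and 0, 0, 1 and 2 in KO+NM1 pieces 1 to 4. It was even over the KO pieces, at 15.6 ± 0.658 CPM (SD, n = 3), with the highest piece 1.08 times the lowest, where Myf6 spanned 35.6-fold. Of the 16471 tested genes counted in every KO piece, 11.8% were more even than Pax3 and 99.6% more even than Myf6. Per 100000 fiber counts Pax3 fell from 473 in piece 1 to 61.7 and 69.0 in pieces 2 and 3. Pooled over pieces, its counts per summed library size were 503 times higher in KO tumor, with a counting interval of 172 to 2444, and the fitted log2 value was 8.76 (SE 0.84, edgeR adjusted p = 0.000375).

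Other tissues that use Pax3 were looked at by their markers. The 7 melanocyte genes summed to 26.8, 51.9 and 30.7 CPM in the KO pieces and 74.8 to 242 CPM in the KO+NM1 pieces. The 8 Schwann cell genes summed to 109 to 120 CPM in the KO pieces and 214 to 583 CPM in the KO+NM1 pieces. The part of such cells in the Pax3 level was not tested. The melanocyte sum was carried by Kit, which other cells also express, and without it the other 6 genes summed to 17.6, 40.9 and 21.7 CPM in the KO pieces and 15.4 to 30.5 CPM in the KO+NM1 pieces, which overlapped. Tyr and Tyrp1, which make pigment, were at 0 and 9 counts in KO piece 1, 32 and 112 in piece 2 and 0 and 0 in piece 3, and these genes were picked after their values were seen, as was Kit. In KO+NM1 pieces 1 to 4, Tyr had 0 counts in each and Tyrp1 had 0, 1, 1 and 4. The sum of 8 cardiac genes was 82.0 to 89.9 CPM in the KO pieces and 2.59 to 5.03 CPM in the KO+NM1 pieces, and the part of such cells was not tested. Of the 5 tested, 4 were called higher, all of which needed the KO pieces to pass the filter, and 1 was lower, which needed the KO+NM1 pieces. Tbx20, a T-box factor of the heart, had a ratio of pooled counts per summed library size of 890 (counting interval 246 to 7352), while Nppa, the atrial hormone gene, had 0 counts in every library and Myl7, an atrial myosin light chain, 0 in every KO piece. Nppb, of the same list but below the filter, had 20, 7 and 19 counts in the KO pieces and 0 in each KO+NM1 piece.

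Mef2c (chromosome 13, 83504034 to 83667080, plus strand) was counted 1143, 3489 and 3927 times in the KO pieces and 5719, 939, 686 and 897 times in KO+NM1 pieces 1 to 4. In CPM it was 38.0, 121 and 129 against 208, 38.1, 33.8 and 36.8. KO+NM1 piece 1 was the highest of all 7, and KO piece 1 was level with KO+NM1 pieces 2 to 4. The means of 96.2 ± 50.5 CPM (SD, n = 3) and 79.3 ± 86.0 CPM (SD, n = 4) lay closer together than the spread between pieces, with 0.28 on the log2 scale (SE 0.79, edgeR adjusted p = 0.789).

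This result rested on KO+NM1 piece 1. Without it, Mef2c was higher in the KO pieces with a log2 fold change of 1.28 (adjusted p = 0.0273 from edgeR), and limma's voom with quality weights, which can give a deviating library less weight, gave 1.54 (adjusted p = 0.00289). That piece also had the 6553 CPM of B cell genes named above, against 36.4 to 78.6 CPM in the KO pieces. In KO+NM1 pieces 2 to 4 most of that sum was Ebf1, which other cells also express and which was picked after its values were seen, and the other 9 genes summed to 7.11 and 4.60 CPM in pieces 2 and 4, with piece 3 also under the 30.5 to 70.8 CPM of the KO pieces, and to 6323 CPM in KO+NM1 piece 1. Endothelial genes summed to 246 to 279 CPM in the KO pieces and 1323 to 1961 CPM in the KO+NM1 pieces, and macrophage genes to 3794 to 4341 CPM and 703 to 2599 CPM. Of the 10 genes of each list, 1 B cell gene, Ebf1, and all 10 endothelial genes were called lower and 8 macrophage genes higher in KO tumor. The part of these cells in the Mef2c level was not tested. Within the KO pieces Mef2c rose 3.18-fold and 3.40-fold from piece 1 to pieces 2 and 3, less than the fiber sum did.

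**Figure D3:**
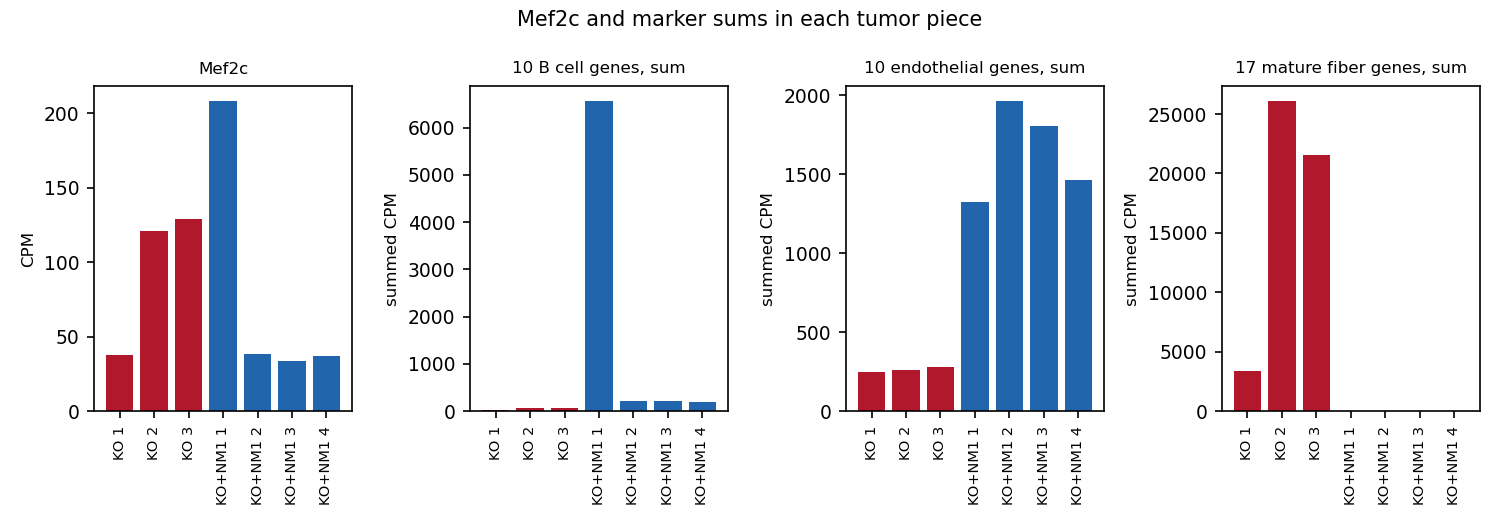
Mef2c in CPM and the summed CPM of 10 B cell, 10 endothelial and 17 mature fiber genes in each of the 7 pieces, KO in red and KO+NM1 in blue, on axes that start at 0. Mef2c is highest at 208 CPM in KO+NM1 piece 1, the piece with 6553 CPM of B cell genes, and next at 129 and 121 CPM in KO pieces 3 and 2, where fiber genes are highest.

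The genes with the most similar profile were found by the correlation of log2 CPM over the 7 libraries, which share the difference between the tumors. For Myf6 these were Lrrc30, Asb14 and Dupd1, with r of 0.9997 to 0.9966, and for Myod1 Trim63, a ubiquitin ligase of muscle, Ppp1r27 and Lrrc30, with r of 0.997 to 0.9964. For Pax3 they included Heatr3 and Ckmt2, the creatine kinase of muscle mitochondria, with r of 0.9986 and 0.9985. Ckmt2 had 217, 183 and 253 counts in the KO pieces and 0, 0, 1 and 1 in the KO+NM1 pieces. Over 14908 genes, r was over 0.95 for 171 genes with Myf6, 243 with Myod1 and 1528 with Pax3, but for 10 with Mef2c, led by Mzt1 at 0.9877, Gm43668 at 0.9785 and Ppp3ca at 0.9723.

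The partners of the myogenic factors were described with 5 further lists, each read against all tested genes, of which 17.1% were higher and 20.3% lower with a median log2 difference of 0.00. Of 29 cofactors, 26 were tested, and 9 were higher, 3 were lower and 14 did not pass, with a median of 0.52. Of the 9, 5 needed the KO pieces to pass the filter, Vgll2 and Lbx1 among them. Vgll2, a cofactor of TEAD proteins, had 44, 127 and 147 counts in the KO pieces and 0 elsewhere, and was at least 28.5-fold higher. Lbx1, a homeobox gene of migrating muscle progenitors, was at 12.0 ± 5.12 CPM (SD, n = 3) against 0.278 ± 0.151 CPM (SD, n = 4), or 5.41 on the log2 scale (standard error 0.53). The largest falls were those of Eya2, a transcriptional coactivator, with -4.41 (standard error 0.50), of Six5 with -2.06 (standard error 0.37) and of the E protein gene Tcf4 with -1.34 (standard error 0.14). The adjusted p of these 5 genes was 0.000680 to 0.00506 from edgeR.

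Among inhibitors of the myogenic factors, falls in the KO pieces outnumbered rises. All 23 were tested, of which 11 were lower, 1 was higher and 11 did not pass, with a median of -1.44. Of the 11 lower, 2 needed the KO+NM1 pieces to pass the filter, so that a call was close to certain for these. Hey1, a Notch target, was at 2.96 ± 0.183 CPM (SD, n = 3) against 54.7 ± 21.7 CPM (SD, n = 4), with an edgeR adjusted p of 0.000600. Msc, or musculin, a repressor that competes for E-boxes, had 2, 25 and 25 counts against 523, 220, 114 and 198 (adjusted p = 0.00749 from edgeR). Msc was among the falls that needed the KO+NM1 pieces to pass the filter. Bhlhe41, another repressor of the same protein family, was at 6.72 ± 2.29 against 98.9 ± 55.4 CPM (SD, n = 3 and 4, adjusted p = 0.00226 from edgeR). The inhibitor that rose was Mstn, which encodes myostatin, a hormone made by fibers that limits muscle mass, with 45, 390 and 328 counts in the KO pieces and 0, 0, 2 and 0 in the KO+NM1 pieces (ratio of pooled counts per summed library size 414, counting interval 114 to 3422, adjusted p = 0.00195 from edgeR). Beside these falls, the 10 endothelial genes and 10 adipocyte genes were all lower in the KO pieces, the latter at 117 to 303 against 4558 to 33200 CPM, and their part in them was not tested. Of the adipocyte genes, 2 needed the KO+NM1 pieces to pass the filter.

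The surface and niche genes of satellite cells did not move together. Of 20 genes 16 were tested, with 5 higher, 3 lower, 8 not past the thresholds and a median of 0.12. Cdh15, or M-cadherin, had 41, 262 and 212 counts in the KO pieces and 5, 0, 0 and 1 in the KO+NM1 pieces (6.50 on the log2 scale, SE 1.17, edgeR adjusted p = 0.00340), and it needed the KO pieces to pass the filter, as did Mstn above and Cav3 below. Vcam1 and Ncam1, adhesion molecules of many cell types, were higher by log2 fold changes of 2.18 (standard error 0.74) and 1.68 (standard error 0.28). Lower were Notch3 with -3.23 (standard error 0.27), the growth factor antagonist Spry1 with -2.07 (standard error 0.46) and Cd34 with -1.97 (standard error 0.35), genes that vessels or other stroma also express. The adjusted p of these 5 was 0.000500 to 0.0448 from edgeR. The count of 8 called genes was 5 without KO piece 3.

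Of 26 fusion genes besides Mymk and Mymx, 23 were tested, with 6 higher, 4 lower, 13 not past the thresholds and a median of 0.18. Cav3, the caveolin of muscle, had 18, 100 and 98 counts in the KO pieces and 0, 0, 6 and 0 in the KO+NM1 pieces (adjusted p = 0.0162 from edgeR). Myof, or myoferlin, was at 389 ± 84.6 against 40.1 ± 8.10 CPM (SD, n = 3 and 4) and Cdh2, or N-cadherin, at 79.9 ± 9.32 against 18.3 ± 7.84 CPM, both without overlap of the groups. Neither followed the fiber genes within the KO pieces, where both were highest in piece 1. The falls were led by Jam2 with -3.48 on the log2 scale (standard error 0.43), Ehd2 with -2.35 (standard error 0.48) and Arhgap26 with -1.42 (standard error 0.37). The adjusted p of these 5 was 0.000235 to 0.0187 from edgeR.

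Genes switched on as myoblasts differentiate came next. Of 25 early differentiation genes 22 were tested, with 16 higher, 2 lower, 4 not past the thresholds and a median of 3.59. Of the 16, 7 needed the KO pieces to pass the filter, Klhl41, Chrna1 and Myh8 among them, so that these calls were close to certain, and the other 9 did not. Klhl41, a protein of the sarcomere, was at 87.4 ± 62.2 against 0.144 ± 0.135 CPM (SD, n = 3 and 4, adjusted p = 0.000738 from edgeR). Chrna1, the acetylcholine receptor subunit controlled by E-boxes, had 111, 1137 and 818 counts in the KO pieces and 2, 0, 0 and 5 in the KO+NM1 pieces (adjusted p = 0.0019 from edgeR). Myh8, the perinatal heavy chain, had 292, 2170 and 1880 counts against 2, 1, 8 and 5 (adjusted p = 0.00104 from edgeR). Myh3, the embryonic heavy chain, had 11, 26 and 26 counts in the KO pieces and 0 in each KO+NM1 piece, and Chrng, the fetal receptor subunit, had 1, 22 and 7 counts against 2, 0, 0 and 0, both picked after their values were seen. Cdkn1c, a cell cycle inhibitor, and Dmpk, a kinase of muscle, were lower with log2 fold changes of -1.62 (standard error 0.43) and -1.30 (standard error 0.37), at adjusted p of 0.0216 and 0.0265 from edgeR, and their groups overlapped.

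**Figure D4:**
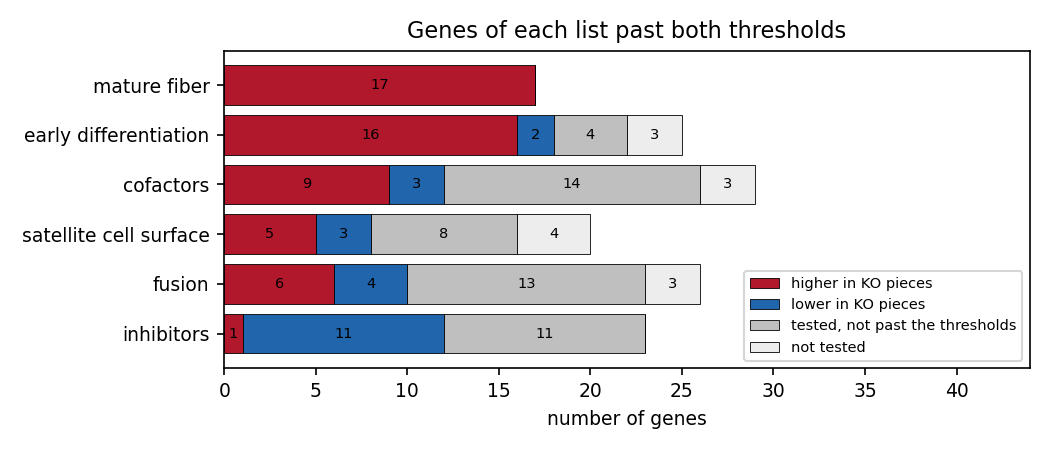
Number of genes in 6 lists that were called higher (red) or lower (blue) in KO tumor (adjusted p under 0.05, 2-fold), tested without passing (gray) or not tested (pale). All 17 mature fiber genes and 16 of 25 early differentiation genes are higher, of which 8 and 7 needed the KO pieces to pass the filter on low counts. In contrast, 11 of 23 inhibitors are lower, of which 2 needed the KO+NM1 pieces to pass it.

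**Figure D5:**
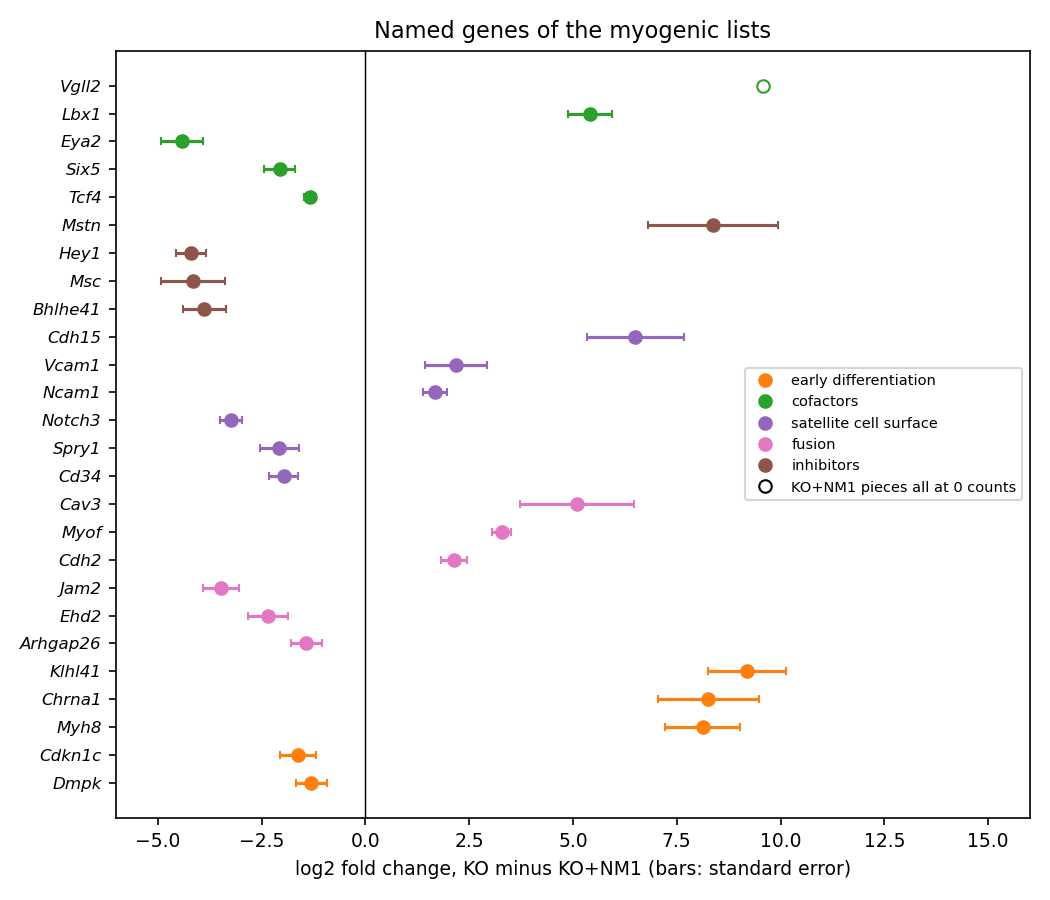
Log2 fold change of genes named from the 5 partner lists, KO minus KO+NM1, with standard errors as bars and color for the list. Vgll2 (open) had 0 counts in every KO+NM1 piece, so its position depends on the prior count, and the values run from -4.41 for Eya2 to 9.19 for Klhl41 among the genes with bars.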

How the data were processed

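RNA-seq was analysed for 3 KO and 4 KO+NM1 tumor pieces. Trimming with Trimmomatic 0.36, alignment to GRCm38 by HISAT2 2.0.4, sorting in SAMtools 0.1.19 and counting with HTSeq-count were done by the authors, who deposited raw counts per Ensembl gene, 24088309 to 28326568 per library. The annotation release and strand option are not given in the sources used here. No other annotated M21 gene overlaps a member.

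Symbols, positions and exon lengths came from GENCODE M21, and 46091 of 46603 genes had a symbol. Counts were analysed in R 4.3.3 with edgeR 4.0.16 (filterByExpr, minimum count 10, TMM, quasi-likelihood test, Benjamini-Hochberg over all genes tested), KO minus KO+NM1. Genes were called at an adjusted p under 0.05 and a 2-fold change. A fold against pieces all at 0 was computed against 3 counts per library, and ratios with few counts have exact binomial 95% intervals, which cover counting error only. Members below the filter had two-sided exact permutation tests of mean CPM over 35 splits.

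The members and lists were chosen with earlier results of these data known. Named were all members, the 3 largest rises and falls called in each partner list with a mean of at least 1 CPM, the 3 most abundant fiber genes, the 3 most correlated genes per tested member, and cell type markers at or under 3 counts in a group, but some of these genes are not reported here. The alternatives were DESeq2 1.42.0, limma 3.58.1 voom, other scalings and filters, the piece number as a block and each library left out, and marker sums without Kit, Ebf1 or Lyz2 were added after seeing the data. Steps were tested on simulated data.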

Additional observations from a re-analysis of the deposited data

Results flagged for a closer look

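In the 4 KO+NM1 pieces, Dixon's ratio, which divides the distance from an extreme piece to the next by the range of all 4, was taken for 19 values, namely Pax3, Mef2c, Mymk, Myo1c and the summed CPM of 15 lists, and 5 of them exceeded its 95% critical value. Chance passes about 1 in 20 such groups, and these values are not independent. The outermost piece was KO+NM1 piece 1 in all 5. The ratio was 0.975 for Mef2c, at 208 CPM in piece 1 against 33.8 to 38.1 CPM in the others. It was 1.00 for Mymk, with 8 counts in piece 1 and 0 in the others. It was 0.998 for the B cell genes, 0.854 for the macrophage genes, at 2599 CPM against 703 to 980 CPM, where Lyz2 alone gave 1895 CPM and the other 9 genes summed to 704 CPM against 507 to 709 CPM, and 0.881 for the fusion genes, at 2058 CPM against 3193 to 3346 CPM.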

How the results depend on the processing

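The comparison rests on pieces that may come from 1 tumor per condition. Myod1, Myf6 and Pax3 kept their direction and call in all 14 alternatives that could fit them, with highest adjusted p of 0.0344, 0.0435 and 0.0097. As these genes entered the main test through the KO pieces alone, their calls were close to certain and this agreement is not support. Of the 9 members 3 were called, 5 with every gene of at least 1 count tested, 0 with at least 10 counts required in every library, where only Mef2c of the members was tested, and 3 to 4 with a library left out. Mef2c had a log2 fold change of -0.03 without KO piece 2 and -0.10 without KO piece 3 (adjusted p 0.981 and 0.944), 1.28 without KO+NM1 piece 1 and 1.54 by voom, and DESeq2 gave it no adjusted p. With at least 10 counts in every library, the called genes were 6 cofactors, 9 early differentiation, 8 mature fiber, 4 Schwann cell and 0 cardiac genes, against 12, 18, 17, 7 and 5. DESeq2 called 2 melanocyte genes against 1, and voom 5 B cell genes against 1. With a library left out, called satellite cell surface genes were 5 to 9 and B cell genes 1 to 3, the 3 without KO+NM1 piece 1. Without the 2-fold threshold 4345 genes were called higher. Library size alone in place of TMM moved the median of all genes from 0.00 to 0.17. The piece number as a replicate block left 5 called satellite cell surface genes and 1 fibroblast gene, against 8 and 3. Nothing says that numbers pair pieces, and same-numbered deviations correlated at 0.0802, 0.102 and -0.0165. Per count of the satellite cell surface genes in place of fiber genes, KO piece 2 over 1 was 9.31 for Myod1, 42.3 for Myf6, 40.0 for Myog, 1.20 for Pax3 and 3.79 for Mef2c. With Myh4, Ckm and Acta1 left out of the fiber genes it was 0.154 for Pax3 and 0.486 for Mef2c, against 0.130 and 0.412. The causes were not tested.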

Other observations

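Besides Pax3, transcription factor genes of the cardiac list were even over the KO pieces, and they were picked after their values were seen. Nkx2-5, a homeobox factor of the heart, had 36.9, 35.4 and 32.8 CPM in KO pieces 1 to 3 and 0.0728, 0, 0.148 and 0.493 CPM in KO+NM1 pieces 1 to 4. Gata4 had 25.9, 21.4 and 21.3 CPM in the KO pieces, and 1.53, 0.0406, 0 and 0.246 CPM in the KO+NM1 pieces. Tbx5, another factor of the heart, went the other way, with 0.0886 ± 0.0946 CPM (SD, n = 3) against 3.32 ± 1.80 CPM (SD, n = 4) and an edgeR adjusted p of 0.00439. It needed the KO+NM1 pieces to pass the filter, so that this call was close to certain. Smooth muscle genes were lower in the KO pieces, with 5 of 7 tested genes called and sums of 123 to 179 against 684 to 1334 CPM.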
